A study of Mus musculus with 16 samples.

Results

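Histone H3 lysine 9 beta-hydroxybutyrylation, a histone acyl mark made from the ketone body beta-hydroxybutyrate, was mapped by chromatin immunoprecipitation and sequencing in mouse occipital cortex. The mice were C57BL/6J at postnatal day 35, either fasted for 48 h or fed ad libitum, 4 ChIP libraries and 4 input libraries standing for each state. The values used here are the authors' 2 lists of regions that differ between the feeding states, 8404 regions higher in fasted mice and 1 higher in ad libitum mice. Each region carries 1 score, a log likelihood ratio (log-LR) of fasted over ad libitum signal. Described here are the 308 regions of the fasted list, 3.66% of it, that lay at genes for long non-coding RNAs (lncRNAs) away from protein-coding genes. Their centre lay inside an lncRNA gene of the mm10 RefSeq table or within 1 kb of one of its ends, on chromosomes 1 to 19, and not inside or within 1 kb of a protein-coding gene. Regions in runs of 5 or more with gaps of at most 20 kb were left out. The ad libitum list held 0 regions of this kind. Position, not log-LR, chose the regions, but every one of them is on the fasted list, so its direction is not a finding.

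An lncRNA is a transcript with no long open reading frame. Some lncRNAs act in the nucleus, as Malat1 does in nuclear speckles, some are precursors of microRNAs or small nucleolar RNAs (snoRNAs), and for some the act of transcription controls a neighbouring gene. Histone acylation is in general found at active promoters, many of which are rich in CpG dinucleotides and start transcription in both directions. Most lncRNA genes of the mouse annotation carry a number in place of a name and have no known function.

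Neither list gives values for single libraries. Depth is therefore unknown, no spread between mice could be given and no difference between feeding states was tested. The intervals below are 95% intervals for counts of regions, genes or starts and cover counting error only. Regions are not replicates of mice. In a tissue homogenate, more cells with the mark and more of the mark per cell cannot be told apart. The lists carry no expression values, so the tissue label was not checked against marker genes.

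The 308 regions lay at 270 lncRNA genes, with 290 regions at 1 such gene and 18 at 2 or more. The centre was inside the gene for 281 regions and outside but within 1 kb for 27. Most sat away from the ends of the gene. In the gene body, over 1 kb from both gene ends and from any annotated start, lay 243 regions (78.9%). Within 1 kb of an annotated start lay 46 (14.9%). A further 8 lay at a 3′ end, 1 at the outer 5′ end of a gene whose annotated starts lay elsewhere, and 10 at an end whose kind is unknown because the RefSeq start table used here has no entry for the gene. Only 253 of the 308 regions lay at a gene with an entry in that table. For the others, some of the 243 among them, the distance to a start is unknown.

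The starts are shown first, since sequence is at hand for them. Below are the 300 bases around 7 starts with a region within 1 kb, 250 before the start and 50 after it, from RefSeq on GRCm38.p6 (mm10), each read 5′ to 3′ along its own strand, with CpG dinucleotides in capitals. They run from CpG-dense to CpG-poorer starts of lncRNAs discussed below, and include Gm40237, whose start had the region of highest log-LR among the 46.
Chaserr, chr7:73558346-73558645, strand -: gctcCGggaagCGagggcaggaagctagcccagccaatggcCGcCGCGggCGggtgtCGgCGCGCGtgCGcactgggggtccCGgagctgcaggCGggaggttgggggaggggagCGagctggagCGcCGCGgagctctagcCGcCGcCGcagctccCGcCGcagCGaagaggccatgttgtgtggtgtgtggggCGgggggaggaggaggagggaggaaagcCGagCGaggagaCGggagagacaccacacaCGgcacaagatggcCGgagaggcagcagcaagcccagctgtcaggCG
Dleu2, chr14:61682324-61682623, strand -: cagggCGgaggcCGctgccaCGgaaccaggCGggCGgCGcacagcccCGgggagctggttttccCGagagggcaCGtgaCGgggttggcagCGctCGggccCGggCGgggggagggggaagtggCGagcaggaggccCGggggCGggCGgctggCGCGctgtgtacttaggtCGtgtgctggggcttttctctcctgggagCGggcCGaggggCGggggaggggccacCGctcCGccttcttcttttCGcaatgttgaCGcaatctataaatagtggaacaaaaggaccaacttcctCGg
Snhg11, chr2:158375463-158375762, strand +: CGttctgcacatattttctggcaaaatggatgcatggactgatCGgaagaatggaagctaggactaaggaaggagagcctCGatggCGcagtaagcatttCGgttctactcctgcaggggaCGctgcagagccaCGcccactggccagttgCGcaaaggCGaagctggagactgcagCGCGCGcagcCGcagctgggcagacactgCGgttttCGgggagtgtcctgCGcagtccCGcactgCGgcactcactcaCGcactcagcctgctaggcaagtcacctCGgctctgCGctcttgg
Pantr2, chr1:42713405-42713704, strand -: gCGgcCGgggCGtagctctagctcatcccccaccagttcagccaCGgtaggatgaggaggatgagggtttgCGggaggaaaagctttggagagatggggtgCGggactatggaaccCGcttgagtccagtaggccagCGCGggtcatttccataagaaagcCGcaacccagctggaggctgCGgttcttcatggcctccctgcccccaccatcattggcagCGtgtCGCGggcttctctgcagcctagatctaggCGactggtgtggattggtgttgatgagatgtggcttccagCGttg
C130071C03Rik, chr13:83721131-83721430, strand +: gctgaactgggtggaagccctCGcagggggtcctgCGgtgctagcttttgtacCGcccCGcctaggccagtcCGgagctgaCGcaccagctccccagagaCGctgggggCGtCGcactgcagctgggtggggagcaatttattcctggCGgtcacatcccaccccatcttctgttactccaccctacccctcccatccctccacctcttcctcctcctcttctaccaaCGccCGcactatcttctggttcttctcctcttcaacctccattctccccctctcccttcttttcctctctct
Gm40237, chr4:118547156-118547455, strand +: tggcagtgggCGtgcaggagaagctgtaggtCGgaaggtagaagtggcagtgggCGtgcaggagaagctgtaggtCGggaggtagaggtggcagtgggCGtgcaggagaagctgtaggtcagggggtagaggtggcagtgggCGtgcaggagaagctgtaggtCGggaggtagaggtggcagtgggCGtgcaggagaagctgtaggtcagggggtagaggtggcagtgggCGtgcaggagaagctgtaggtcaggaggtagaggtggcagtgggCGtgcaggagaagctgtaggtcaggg
Malat1, chr19:5802623-5802922, strand -: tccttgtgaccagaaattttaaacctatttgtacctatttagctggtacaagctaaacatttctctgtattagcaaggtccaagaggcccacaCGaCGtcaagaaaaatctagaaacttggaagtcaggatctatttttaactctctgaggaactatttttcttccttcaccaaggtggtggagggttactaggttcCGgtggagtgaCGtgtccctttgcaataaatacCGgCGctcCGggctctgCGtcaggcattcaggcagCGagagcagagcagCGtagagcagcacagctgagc
Chaserr, whose transcription lowers the level of the chromatin remodeller gene Chd2 next to it, had 30 CpG in this window, and its region (log-LR 3.49) was centred 463 bp downstream of the start. Dleu2, the host of the microRNA Mir16-1, had 29 CpG and 2 regions, centred 89 bp downstream (log-LR 6.42) and 463 bp upstream (3.27). Snhg11, a snoRNA host gene transcribed in neurons, had 21 CpG and a region 243 bp downstream (log-LR 3.75). Pantr2 had 16 CpG and a region 55 bp downstream (log-LR 4.19), centred 13.2 kb from the neuronal transcription factor gene Pou3f3. This region also lay inside the lncRNA gene Gm46091. Malat1, with 10 CpG, had its region (log-LR 5.05) 574 bp upstream. Wholly outside the bases shown lay the regions of Malat1, Chaserr and Snhg11, the upstream region of Dleu2 and the Gm40237 region of log-LR 59.8. Gm40237, with 10 CpG and regions of log-LR 59.8 and 32.1, differs from the other 6 in that its window repeats itself. Shifted by 88 bases, 97.6% of its bases met the same base, against 32.3% to 41.4% for the other 6 windows at their best shift between 10 and 100 bases. C130071C03Rik had 12 CpG, and 101 of the 300 bases printed for it lay in its region.

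Few lncRNA starts had a region, and those that did were richer in CpG than those that did not. Of 7103 annotated lncRNA starts over 1 kb from a protein-coding gene, 51 (0.718%) had a fasting-enriched region centred within 1 kb, against 2619 of 20085 protein-coding starts (13.0%) and 9.51% of all annotated starts. The 51 lncRNA starts had a median of 12 CpG in their 300 bases (quartiles 6.50 and 22), and the 7052 other lncRNA starts a median of 3 (quartiles 2 and 6). Their median GC content was 55.7%, against 47.0%. A gene with several annotated starts is counted once per start. With 20 or more CpG, 15 of 121 lncRNA starts had a region (12.4%, Wilson interval 7.66 to 19.4), and with 10 to 19 CpG 20 of 512 did (3.91%, 2.54 to 5.96). With 5 to 9 CpG it was 6 of 1833 (0.327%), and with 0 to 4 CpG 10 of 4637 (0.216%, 0.117 to 0.397). Protein-coding starts in the same 4 classes, from CpG-dense to CpG-poor, had 25.8%, 13.4%, 3.69% and 0.525%. In each class the share was lower at lncRNA starts, and the intervals of the 2 kinds of start did not overlap in the classes of 5 or more CpG. Of the lncRNA starts, 65.3% fell in the class of 0 to 4 CpG, against 27.5% of protein-coding starts. Expression was not measured here, so whether the starts with a region are those in use in cortex was not tested.

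**Figure D1:**
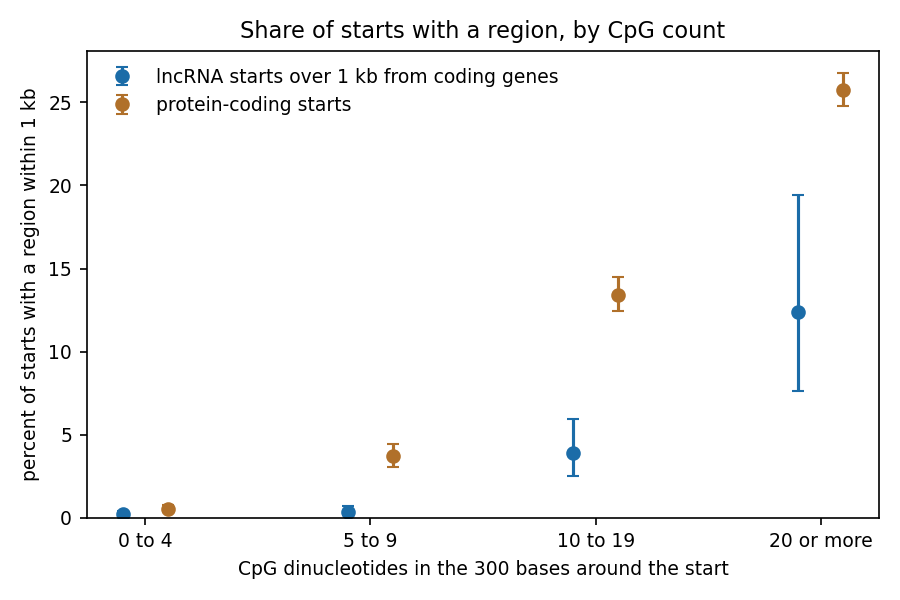
Share of annotated starts with a fasting-enriched region centred within 1 kb (y axis, percent), by the number of CpG dinucleotides in the 300 bases around the start (x axis), for lncRNA starts over 1 kb from coding genes and for protein-coding starts. Points are shares and bars 95% Wilson intervals for counting error. The lncRNA share was 0.216% with 0 to 4 CpG and 12.4% with 20 or more.

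The 15 CpG-dense lncRNA starts with a region were those of Chaserr, Dleu2, Snhg11 and Zmiz1os1, of the numbered genes E130102H24Rik (47 CpG), 4930578G10Rik (46), B330016D10Rik (43), 9530059O14Rik (38), 6530402F18Rik (28), 2810410L24Rik (27), 2310015A10Rik (24), Gm52298 (33), Gm11205 (32) and Gm38577 (24), and of Smkr-ps (23). Zmiz1os1 runs opposite to the transcriptional coregulator gene Zmiz1. At the other end, Gm40642 had 0 CpG in its window and a region of log-LR 8.30 centred 0.960 kb upstream of the start.

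Short motifs were counted on both strands of the same 300 bases, where a motif that holds CG or is rich in G and C will move with the CpG content. The GC box GGGCGG was present at 28 of the 51 lncRNA starts with a region (54.9%), at 8.83% of the other lncRNA starts and at 36.0% of all promoters in the table. TGACG, the shared part of cAMP response elements, was present at 13 (25.5%), against 13.1% of the other lncRNA starts and 21.0% of all promoters. TATAAA was present at 4 (7.84%), against 17.4% and 13.6%, and CCAAT at 17 (33.3%), against 37.8% and 37.3%. The E-box CACGTG was present at 4 (7.84%), against 5.60% and 7.14%, and the AP-1 motif TGANTCA at 3 (5.88%), against 10.5% and 7.84%. These are matches of letters in a window and not sites of binding.

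Regions at lncRNA starts lay on both sides of the start. Of the 46, 22 were centred downstream (47.8%, Wilson interval 34.1 to 61.9) and 24 upstream, with a median position of -49.5 bp. Around protein-coding starts 84.8% of 2211 regions were centred downstream (83.2 to 86.2), with a median position of 266 bp. Within 500 bp of the start lay 30 of the 46 lncRNA regions. At 3 regions the starts of a pair of lncRNA genes on opposite strands were both within 1 kb. One was shared by C130071C03Rik and Gm52046 (log-LR 5.69), 0.301 kb upstream of the first start and 575 bp downstream of the second. Another was shared by Zmiz1os1 and Gm41113 (log-LR 5.20). The last was shared by Gm46405 and Gm52067 (5.02), 5.96 kb from the transcription factor gene Sox4. Gm46405 held a second region, 985 bp downstream of its start (log-LR 6.08).

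**Figure D2:**
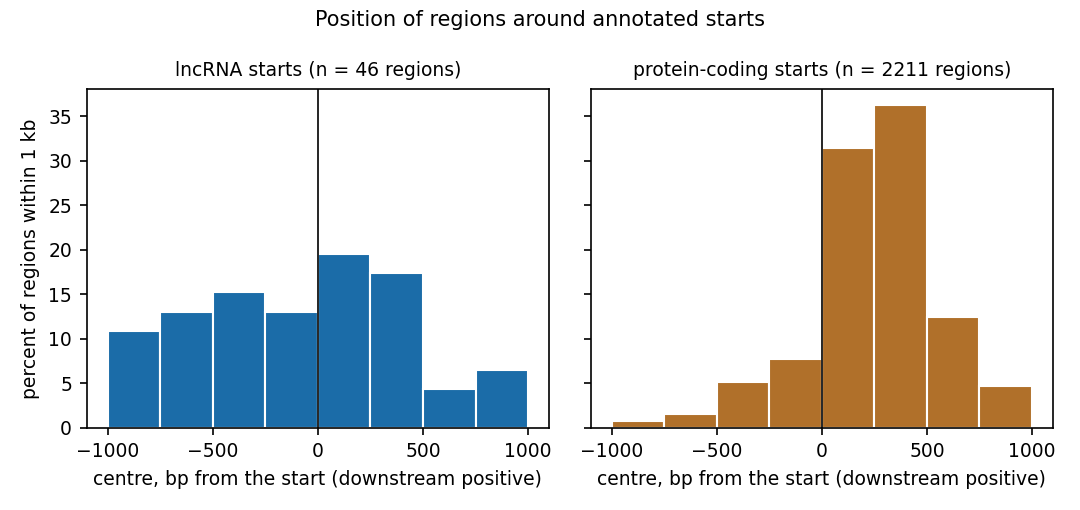
Position of region centres around annotated starts in steps of 250 bp (x axis, bp, downstream positive), as a percent of the regions within 1 kb (y axis), for 46 regions at lncRNA starts and 2211 at protein-coding starts. The lncRNA regions spread over both sides, with 22 downstream, while 84.8% of the regions at protein-coding starts were downstream.

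Counted per length of DNA, the regions were denser at lncRNA starts than in the rest of lncRNA genes. The 1 kb around annotated lncRNA starts, outside coding genes, made up 12.7 Mb and held 3.62 regions per Mb (exact Poisson interval 2.65 to 4.82). The rest of the lncRNA genes without ends of unknown kind, 155.4 Mb, held 1.56 per Mb (1.37 to 1.77). The lncRNA ends of unknown kind, 6.51 Mb, held 7 regions or 1.07 per Mb (0.432 to 2.21). DNA in neither kind of gene held 2.21 per Mb (2.13 to 2.30), so the rest of the lncRNA genes had fewer regions per Mb than that DNA. The rest of protein-coding genes held 1.67 per Mb (1.59 to 1.75), an interval that overlaps that of the rest of lncRNA genes. Protein-coding starts held 62.9 per Mb (60.3 to 65.6), and protein-coding ends of unknown kind 28.2 per Mb (25.4 to 31.2). These densities cover the 18 chromosomes with annotated starts in the table and leave out runs.

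**Figure D3:**
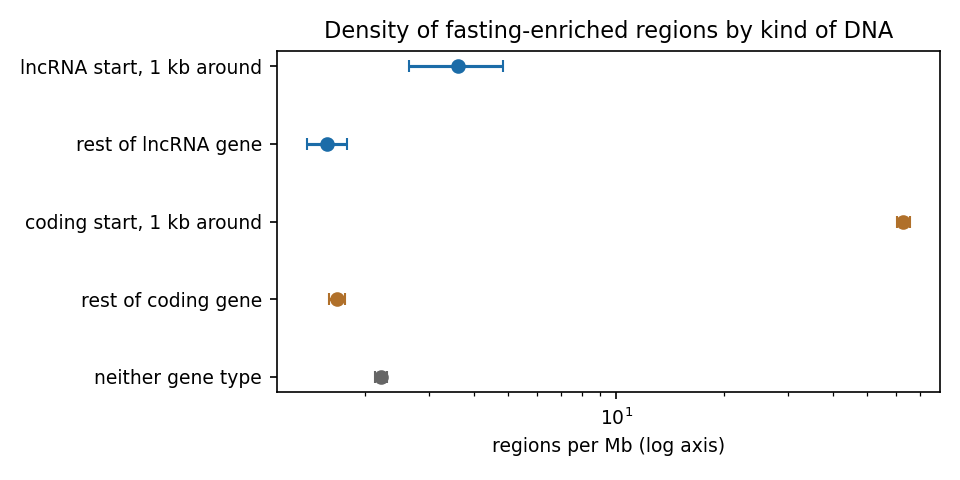
Fasting-enriched regions per Mb (x axis, log scale) in 5 kinds of DNA, with exact 95% Poisson intervals for counting error. Gene ends of unknown kind are not drawn. Starts of lncRNA genes held 3.62 per Mb and the rest of those genes 1.56 per Mb, against 62.9 per Mb at protein-coding starts.

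At the level of genes, 270 of 12408 lncRNA genes had one of these regions (2.18%). Over all genes of the same chromosomes, 10.2% had a fasted region outside runs inside or within 1 kb, and 18.6% of protein-coding genes did. Any such region, also where it lay at a coding gene, was found at 5.85% of lncRNA genes. That share was 9.82% (521 of 5303) for lncRNA genes with some part inside or within 1 kb of a coding gene, and 2.89% (205 of 7105) for those wholly farther away, of which 2.84% had one of the 308. The share went with gene length, and it was not scaled by length, although a longer gene offers more DNA in which a region can lie. It was 43 of 6942 (0.619%) for lncRNA genes under 10 kb, 110 of 4583 (2.40%) from 10 to 50 kb, 58 of 614 (9.45%) from 50 to 100 kb and 59 of 269 (21.9%) at 100 kb or more. Median gene length was 41.7 kb for the 270 genes, against 8.39 kb for all lncRNA genes. Genes with a region at a start were shorter, with a median of 11.05 kb, than genes with one in the body, at 54.1 kb. The body excludes 1 kb at each end, so short genes have little or none, and this order follows in part from the definition. By the form of the symbol, 191 of 9879 Gm genes (1.93%), 58 of 1751 Rik genes (3.31%), 3 of 300 LOC genes (1.0%), 4 of 218 genes named as opposite strand or overlapping transcripts (1.83%) and 14 of 260 others (5.38%, Wilson interval 3.23 to 8.83) had a region.

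The lists of named lncRNAs are small, and their shares stand beside the 2.18% of all lncRNA genes and the 5.38% of the genes with other names. Gene length, with which the share with a region rose, was not matched in the lists here and below, and its part was not tested. In the list of brain and nuclear lncRNAs, 3 of 19 had a region (15.8%). These were Malat1, Norad, a cytoplasmic lncRNA that binds Pumilio proteins (chromosome 2, 156392495 to 156392810, log-LR 5.61), and Lncpint, a lncRNA induced by p53. The Norad region also lay inside the lncRNA gene Gm14170. Lncpint held 2 regions, 1796 bp (log-LR 5.37) and 1207 bp (6.55) downstream of its start. 2210408F21Rik, whose gene lies next to Lncpint, had a region 182 bp upstream of its own start (4.27). The 16 without a fasted region included Neat1, which builds paraspeckles, Miat, Rmst, Tunar and the imprinted Meg3. Of 15 lncRNAs beside developmental transcription factor genes, 1 had a region (6.67%), Pax6os1 (log-LR 4.89), and the 14 others, Hotair, Six3os1 and Sox2ot among them, had none.

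Among snoRNA host genes 2 of 21 had a region (9.52%, against 2.18% of all lncRNA genes), Snhg11 and Snhg14. Zfas1, another of them, had 1 fasted region, with a log-LR of 5.03, that was also at a protein-coding gene and so is not counted. The other 18, including Gas5, Snhg1 and Snhg12, had none. Of 8 imprinted lncRNAs 1, Snhg14, had a region of this kind (12.5%). Kcnq1ot1, the antisense RNA of the Kcnq1 domain, had 1 that lay also at a protein-coding gene (log-LR 4.99), and H19, Airn, Peg13, Rian, Mirg and Meg3 had none. Snhg14 is the long transcript of the Prader-Willi and Angelman domain that carries snoRNA clusters and runs antisense to Ube3a. Its gene spans 1177 kb on chromosome 7. Its 4 regions had log-LR values of 4.52, 4.08, 6.79 and 3.55, between positions 59690858 and 59868285, which is 582 to 759 kb downstream of the nearest annotated start. A further 7 fasted regions in the Snhg14 gene stood in a run and were left out, and 2 were at a protein-coding gene.

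MicroRNA host genes had a region in 3 of 16 (18.8%), Dleu2, Mir670hg and Mir124a-1hg. Mir124a-1hg, the host of a microRNA of neuronal identity, had a region of log-LR 5.94 in its body. Counted by position on either strand, in a comparison chosen after the values were seen, 93 lncRNA genes contain a microRNA hairpin of the RefSeq set used here. Against 2.18% of all lncRNA genes, 8 of these 93 had a region (8.60%, Wilson interval 4.42 to 16.1). Mir124a-1hg is not among the 8, so the hairpins counted do not cover every host gene and both counts may be too low. The median length of the 93 genes was 19.3 kb, longer than that of all lncRNA genes, and the part of length in this share was not tested. Mature microRNAs of the 8 genes with a region are given for those known in brain or grouped by a shared seed. They are from RefSeq, 5′ to 3′, with the seed (bases 2 to 8) in capitals and the position of the hairpin on GRCm38.p6.
mmu-miR-9-5p, from Mir9-2, chr13:83738814-83738885, strand +: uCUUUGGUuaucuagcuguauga
mmu-miR-9-3p, from Mir9-2, chr13:83738814-83738885, strand +: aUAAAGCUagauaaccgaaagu
mmu-miR-129-5p, from Mir129-2, chr2:94241364-94241453, strand -: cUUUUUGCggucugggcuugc
mmu-miR-129-2-3p, from Mir129-2, chr2:94241364-94241453, strand -: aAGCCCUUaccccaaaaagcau
mmu-miR-101a-3p, from Mir101a, chr4:101346945-101347027, strand -: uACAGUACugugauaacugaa
mmu-miR-16-5p, from Mir16-1, chr14:61631880-61631972, strand -: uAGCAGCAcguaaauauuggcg
mmu-miR-195b, from Mir195b, chr2:56785811-56785907, strand +: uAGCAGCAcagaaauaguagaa
The mature miR-9-5p is made from more than one gene, and 2 of its host lncRNAs had a region. Mir9-3hg, by its name the host of Mir9-3, had no fasted region. In Gm3764 the region (chromosome 3, 88215743 to 88215982, log-LR 4.49) lay 57 bp from the Mir9-1 hairpin. In C130071C03Rik, the host of Mir9-2, the region at the start, shared with Gm52046, lay 17.6 kb from the hairpin. Its centre was 54.0 kb from the neuronal transcription factor gene Mef2c. miR-9 is known to act in neural progenitors. In Mir670hg the region (chromosome 2, 94241344 to 94241653, log-LR 7.76) covered the hairpin of Mir129-2. E130102H24Rik, the host of Mir101a, had 2 regions at its CpG-dense start, 105 bp downstream (log-LR 4.58) and 958 bp upstream (4.16). Both also lay inside the lncRNA gene 0610043K17Rik. miR-16-5p, hosted by Dleu2, and miR-195b share their seed. The Mir195b hairpin lies within Gm33458 but on the opposite strand, so Gm33458 is not its host transcript. Gm33458 held a region 609 bp downstream of its start (log-LR 4.67) and another in its body (4.06).

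Protein-coding neighbours were mostly distant. The median distance from a region to the nearest protein-coding gene was 59.0 kb (quartiles 16.99 and 177.9), with 24 regions at 5 kb or less, 117 from there to 50 kb and 167 beyond 50 kb. For regions at lncRNA starts the median was 15.3 kb, against 68.2 kb for those in the body. The distances of 4 regions to their coding neighbours are given as examples, chosen after their values were seen. Prdm16os had a region 1146 bp from Prdm16 (log-LR 4.63), 2410080I02Rik one 7.13 kb from the glucocorticoid-induced gene Klf9 (4.05), and Gm31194 one 13.9 kb from the transcriptional kinase gene Cdk12 (4.03). In the body of A830082K12Rik a region lay 3.76 kb from Nr2f1, which patterns the cortex (log-LR 10.02). The 5 farthest regions lay in Gm33246, 2217 kb from Pcdh20 (log-LR 6.16), in 4930474G06Rik, 1654 and 1637 kb from Pik3c3 (3.44 and 4.38), and in C230029F24Rik, 1597 and 1595 kb from Tmeff2 (4.07 and 9.10).

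In log-LR and width the regions were close to the rest of the list at the median. The median log-LR was 5.04 (quartiles 4.19 and 6.68), against 4.89 at protein-coding ends, 4.95 in protein-coding bodies, 4.77 in DNA with neither gene type and 4.96 over the whole list, these regions included. The median width was 208 bp, against 205 bp over the whole list. A log-LR of 10 or more was reached by 23 regions (7.47%, Wilson interval 5.03 to 10.96), against 1.08% at protein-coding ends (0.730 to 1.58), 3.81% in protein-coding bodies (3.05 to 4.74) and 4.37% with neither gene type (3.66 to 5.20), all outside runs. Over the whole list, runs included, it was 5.84%. Within lncRNA genes the median log-LR was 4.84 at starts, 5.46 at 3′ ends (8 regions) and 5.09 in bodies. Of the 46 regions at starts 3 reached a log-LR of 10, and of the 243 in bodies 18 did.

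**Figure D4:**
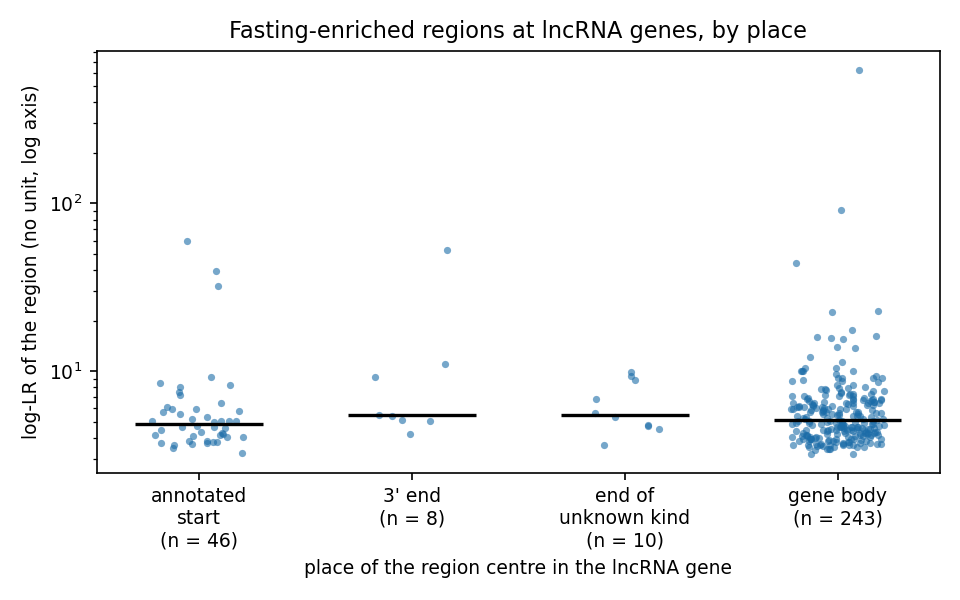
Log-LR of each region at an lncRNA gene (y axis, log scale) by the place of its centre (x axis). Each point is 1 region and the black line the median, which was 4.84 at annotated starts and 5.09 in gene bodies. The region of highest log-LR, 623.8, lay in a gene body, and the 1 region at an outer 5′ end is not drawn.

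The 10 regions of highest log-LR were led by one in Gm33838 (chromosome 9, 35305283 to 35305539, log-LR 623.8), 257 bp wide. The next was also the widest of all 308, 2488 bp in 2700054A10Rik (chromosome 17, 13550670 to 13553157, log-LR 90.9). Gm40237, a gene of 1.12 kb, held regions of 59.8 and 32.1, the first of them 1060 bp wide and the second covering 248 of the 300 bases printed for its start. AY036118 had 53.0 at its 3′ end, where the region overlapped the pseudogene Rn18s-rs5, related to 18S ribosomal RNA. C920006O11Rik had 39.3, 401 bp upstream of its start, in a region that overlapped Rn7sk, the gene of the 7SK RNA that holds back transcription elongation. The others were in Gm36876 (43.8), Gm46595 (22.7), Gm32549 (22.4) and Gm39317 (17.7). In all, 8 of the 308 regions (2.60%) overlapped an annotated gene that is neither an lncRNA nor protein-coding gene, including a histidine transfer RNA gene near Gm40099 (log-LR 5.11), against 1.03% at protein-coding ends, 1.22% in protein-coding bodies and 4.37% of the regions at neither gene type. Whether repeated sequence underlies the highest values was not tested. Without these 10 regions the highest log-LR was 16.1, in Gm39127. The other wide regions were in LOC115490388 (1169 bp, log-LR 5.95), Gm39317 (853 bp, 13.9) and Gm27166 (819 bp, 7.31).

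Of the 270 genes 227 held 1 region, 35 held 2, 6 held 3, 1 held 4 and 1 held 7. The gene with 7 was Gm36684, 160.7 kb long on chromosome 17. Along it the log-LR values were 5.02, 4.18, 6.47, 10.4, 16.0, 5.58 and 4.78, from 24.9 to 151.5 kb downstream of its start. The regions of 5.58 and 4.78 also lay inside Gm36589, an lncRNA gene on the opposite strand. The protein-coding genes nearest to the Gm36684 regions were Smok2a, Smok2b and Tcp10c, members of gene families, 5.04 to 48.5 kb from the regions. The sources used here do not say how reads matching several places were handled. Sequence identity was not measured, and whether it bears on the regions of Gm36684 was not tested. The genes with 3 were 1700030F04Rik, 4930474G06Rik, 6530403H02Rik, Gm1604a, Gm20750 and Gm39317. In Gm20750 the 3 regions lay within 1.1 kb of each other (log-LR 4.85, 6.17 and 3.80), and in Gm39317 within 1.8 kb (5.86, 13.9 and 17.7), so the regions of a gene can nearly adjoin and are not separate genes or samples.

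**Figure D5:**
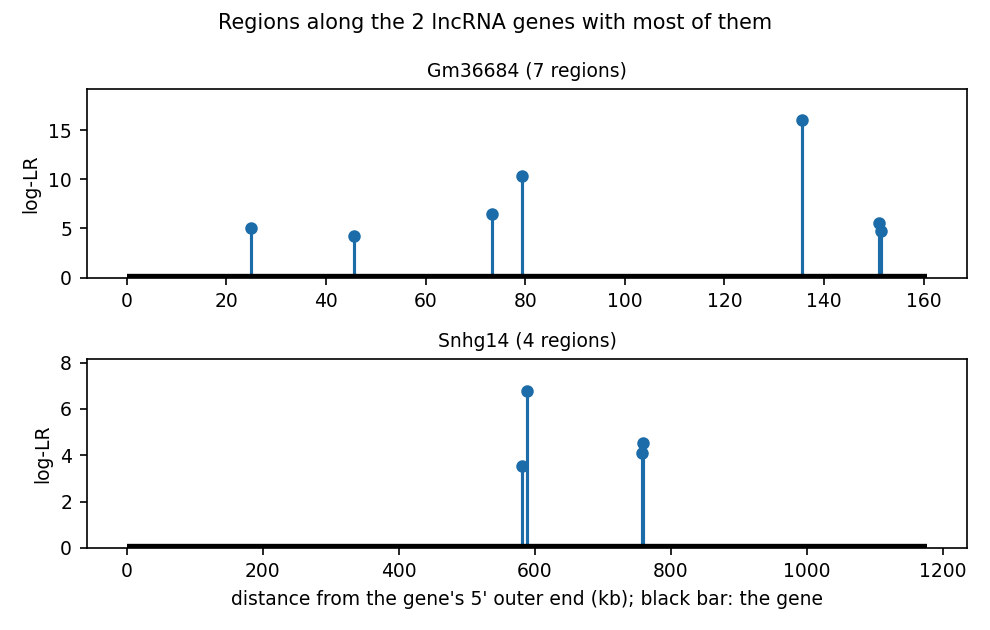
Log-LR (y axis) of the regions along Gm36684 (7 regions) and Snhg14 (4 regions), by distance from the outer 5′ end of the gene (x axis, kb), with the gene as a black bar. In Gm36684 the highest value, 16.0, lay 135.6 kb downstream of its start, and in Snhg14 the 4 values were 3.55 to 6.79.

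The rule has sharp limits. Just inside the limit of 1 kb from an lncRNA gene were regions 719, 834 and 999 bp from Gm41501 (log-LR 3.76), Gm34698 (7.99) and Gm31408 (5.41), and just outside were regions 1012, 1078 and 1080 bp from Gm41001 (5.89), Gm40504 (5.47) and Gm41530 (19.4). On the side of protein-coding genes, regions at Gm41501, Prdm16os and Gm52298 were kept at 1139, 1146 and 1442 bp. Regions at Gm36220, Gt(ROSA)26Sor and Gm32896 were left out at 840, 831 and 724 bp, with log-LR values of 6.25, 7.96 and 5.18. In all, 868 regions on chromosomes 1 to 19 were at an lncRNA gene. Of these 533 were also at a protein-coding gene and 27 of the others were in runs. By chromosome, the 308 made up 2.36% of the regions of chromosome 8 to 5.97% of those of chromosome 14.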

How the data were processed

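Chromatin from the occipital cortex of both groups was assayed by chromatin immunoprecipitation against beta-hydroxybutyrylated H3K9. The submitters' processing notes name Bowtie2, MACS2 and the mm10 build but no roles. The authors deposited 2 region lists, whose columns, per the file headers, are chromosome, start, end, name and log-LR, used here as a score. For its log base, cutoff, depth scaling and any pooling of libraries: not given in the sources used here. Starts were read as counted from 0 and are printed from 1.

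Region centres were placed against 47042 RefSeq genes of GRCm38.p6 on chromosomes 1 to 19. Starts came from 31396 RefSeq promoter windows, which cover 18 of these chromosomes, so the kind of end is unknown for other genes. No test was run: shares have Wilson intervals and densities exact Poisson intervals, at 95%. The rule was checked on planted positions. Members and lists were chosen with earlier results of these data known. Genes named are the regions of highest log-LR, width and distance to coding genes, genes with most regions, list members and regions at the limits, with others chosen after their values were seen. Alternatives were other windows, overlap, run, log-LR and merging rules. Tables were made with pandas 2.3.3 and numpy 2.4.6, intervals with scipy 1.17.1 and figures with matplotlib 3.10.9, in Python 3.11.15.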

Additional observations from a re-analysis of the deposited data

Results flagged for a closer look

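On chromosomes 1 to 19, 27 fasted regions at lncRNA genes outside coding genes stood in runs and were left out by the rule. They entered no comparison other than the values over the whole list and some of the alternatives below. Log-LR ran between 3.95 and 14.6 in them (median 7.24). Of these, 8 lay at Gm52861, 7 at Snhg14, 4 at A530040E14Rik and 3 at Gm52862. On chromosome X, which the rule does not cover, 7 fasted regions outside runs lay at such lncRNA genes, among them 3632454L22Rik and Gm5636, and their log-LR ran between 3.46 and 8.28 (median 3.96). On chromosome Y, 9 regions lay at Gm33272, all in a run (log-LR 3.55 to 9.02).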

How the results depend on the processing

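Of 99 values under 11 alternatives, 75 stayed within the interval of the reported value, or within 1.5 times for counts, and 24 moved. Results on starts and CpG were added after seeing the data. With a log-LR of at least 5 there were 166 regions at 157 lncRNA genes, 22 at starts, a median log-LR of 6.55, a median width of 222 bp, and 5.79% of CpG-dense starts (20 or more CpG) with a region. This is 3 more regions than reach that log-LR among the 308, since removing low regions breaks up runs. With at least 10 the values were 23 regions, 21 genes, 3 starts, 16.0, 252 bp, a median distance to coding genes of 27.8 kb, 0% of CpG-dense starts and 0% of starts with under 5 CpG. With named lncRNA genes alone (no Gm, LOC or Rik) there were 24 regions at 18 genes, 9 at starts. Their median width was 165.5 bp, and 41.7% of them lay within 1 kb of an outer gene end (19.8% as reported). Of all CpG-dense lncRNA starts, those of Gm, LOC and Rik genes included, 4.13% had one of these regions. Of all CpG-poor lncRNA starts, 0% did. That share at gene ends was 15.5% with an lncRNA window of 500 bp and 26.7% when coding genes were kept out inside the gene alone, a setting in which the median distance to coding genes was 45.4 kb. The lower counts, the lower shares of starts with a region and the higher median log-LR follow from the log-LR limits and the gene filter by construction. By construction too, the 500 bp window lowered the share at gene ends, and keeping coding genes out inside alone lowered the median distance. For the other shifts the cause was not tested. The lists hold no value per library, so depth, replicates and pairing were not analysed here. No paired analysis was possible because the result comes from no test.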
